A study of Homo sapiens with 24 samples.

Results

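The genes described here encode 10 abundant proteins that hepatocytes secrete into plasma: *ALB*, *AFP*, *TF*, *TTR*, *RBP4*, *SERPINA1*, *HP*, *ORM1*, *AMBP* and *AHSG*. They were taken as the rows of the count matrix with these gene names, 10 of 18915 genes, and all 10 passed the expression filter that left 12685 genes for testing. The cells were HepG2, a human hepatoma line that still makes many hepatocyte plasma proteins. They were kept for 10 h with the vehicle DMSO, with bortezomib at 50 nM, nelfinavir at 20 µM or ISRIB at 50 nM, or with 1 of the co-treatments, bortezomib with nelfinavir and bortezomib with ISRIB at the same concentrations. Bortezomib is a proteasome inhibitor, nelfinavir is an HIV protease inhibitor that raises ATF4 signaling through eIF2α, and ISRIB makes translation insensitive to phosphorylated eIF2α. Each treatment has 4 RNA-Seq libraries, described as biological replicates, and HepG2 is 1 tumour line in culture and not liver tissue.

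The proteins are made on the rough endoplasmic reticulum (ER), carry a signal peptide and leave the cell through the Golgi, so that in the liver they are a large part of the cargo of the secretory pathway. Albumin holds the oncotic pressure of plasma and carries fatty acids, bilirubin and drugs, and alpha-fetoprotein (*AFP*) is its fetal relative, which is switched off after birth and returns in many hepatomas. Transferrin (*TF*) carries iron. Transthyretin (*TTR*) carries thyroxine and travels with the retinol-binding protein (*RBP4*). *SERPINA1* encodes alpha-1-antitrypsin, the inhibitor of neutrophil elastase. Haptoglobin (*HP*) binds free haemoglobin and orosomucoid (*ORM1*) binds basic drugs, and like *SERPINA1* both are acute-phase genes. *AMBP* encodes a precursor that is cut into alpha-1-microglobulin and bikunin, and *AHSG* encodes fetuin-A, which keeps calcium phosphate in solution.

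The libraries were made from the 3′ ends of transcripts, so that counts do not scale with transcript length, and levels are given as CPM, the counts of a gene relative to all counts of its library, scaled with TMM factors. Total counts per library ran from 5154533 to 6943164. Mitochondrially encoded genes took 19.97 to 23.1% of the counts in DMSO and 32.8 to 35.5% in bortezomib, with 24.9 to 29.6% when nelfinavir and 32.6 to 40.2% when ISRIB was added to it, and the TMM factors were 1.16 to 1.24 without bortezomib and 0.786 to 0.869 with it. With library totals alone, log2 fold changes between bortezomib and DMSO shift by a median of −0.50 over the tested genes, and the calls change from 3498 higher and 3275 lower to 1490 higher and 6266 lower. Changes with bortezomib are therefore relative to the bulk of the other genes, and the amount of RNA per cell was not measured. In these bulk samples, fewer cells making an RNA and less RNA in each cell cannot be told apart. Of the epithelial and hepatoma markers, *APOA1*, *APOB*, *KRT8*, *KRT18*, *EPCAM* and *GPC3* passed the filter, whereas *DLK1* had 0 to 4 counts in each treatment. Of the markers of other cells, *COL1A1* had 0 to 9 and *COL3A1* 0 to 4 counts per treatment, no row was used for *PTPRC*, *PECAM1*, *VWF* or *LUM*, and *CD68* and *ACTA2* had 121 and 1019 counts in the 4 DMSO libraries together. *ACTA2*, a smooth muscle actin also made by cultured cells, was higher in bortezomib than in DMSO by 1.47 ± 0.13 on the log2 scale (SE, edgeR adjusted p = 4.237e-11), whereas *CD68* was at −0.30 and did not pass. Of the 6 tested epithelial and hepatoma markers, *GPC3* (−0.66) and *APOA1* (−0.62) were called lower in bortezomib and *EPCAM* (0.34) higher. With library totals alone 5 of the 6 were lower and 0 higher. The part of these markers in the results below was not tested.

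The 10 genes together made up 1.4% ± 0.09 of all counts in DMSO (SD, n = 4). Their share was 1.34% ± 0.06 in ISRIB and 1.37% ± 0.08 in nelfinavir (SD, n = 4 each). It was 0.815% ± 0.03 in bortezomib, and the co-treatments had 0.608% ± 0.06 with nelfinavir and 0.788% ± 0.05 with ISRIB (SD, n = 4 each). Every library with bortezomib lay below every library without it, the highest of the former at 0.847% and the lowest of the latter at 1.28%. The size of this gap depends on the scaling. As TMM-scaled CPM, the 10 genes summed to 10710.4 to 12440.5 in DMSO and to 8968.5 to 10016.9 in bortezomib. On that scale the highest library with bortezomib, replicate 4 of the ISRIB co-treatment, was at 10654.9. The lowest library without bortezomib, DMSO replicate 1, was at 10710.4. Among the counts that are not on mitochondrial genes, DMSO had 1.78% ± 0.12 and bortezomib 1.23% ± 0.05, whereas the co-treatment with nelfinavir had 0.837% ± 0.10 and that with ISRIB 1.24% ± 0.14 (SD, n = 4 each).

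**Figure D1:**
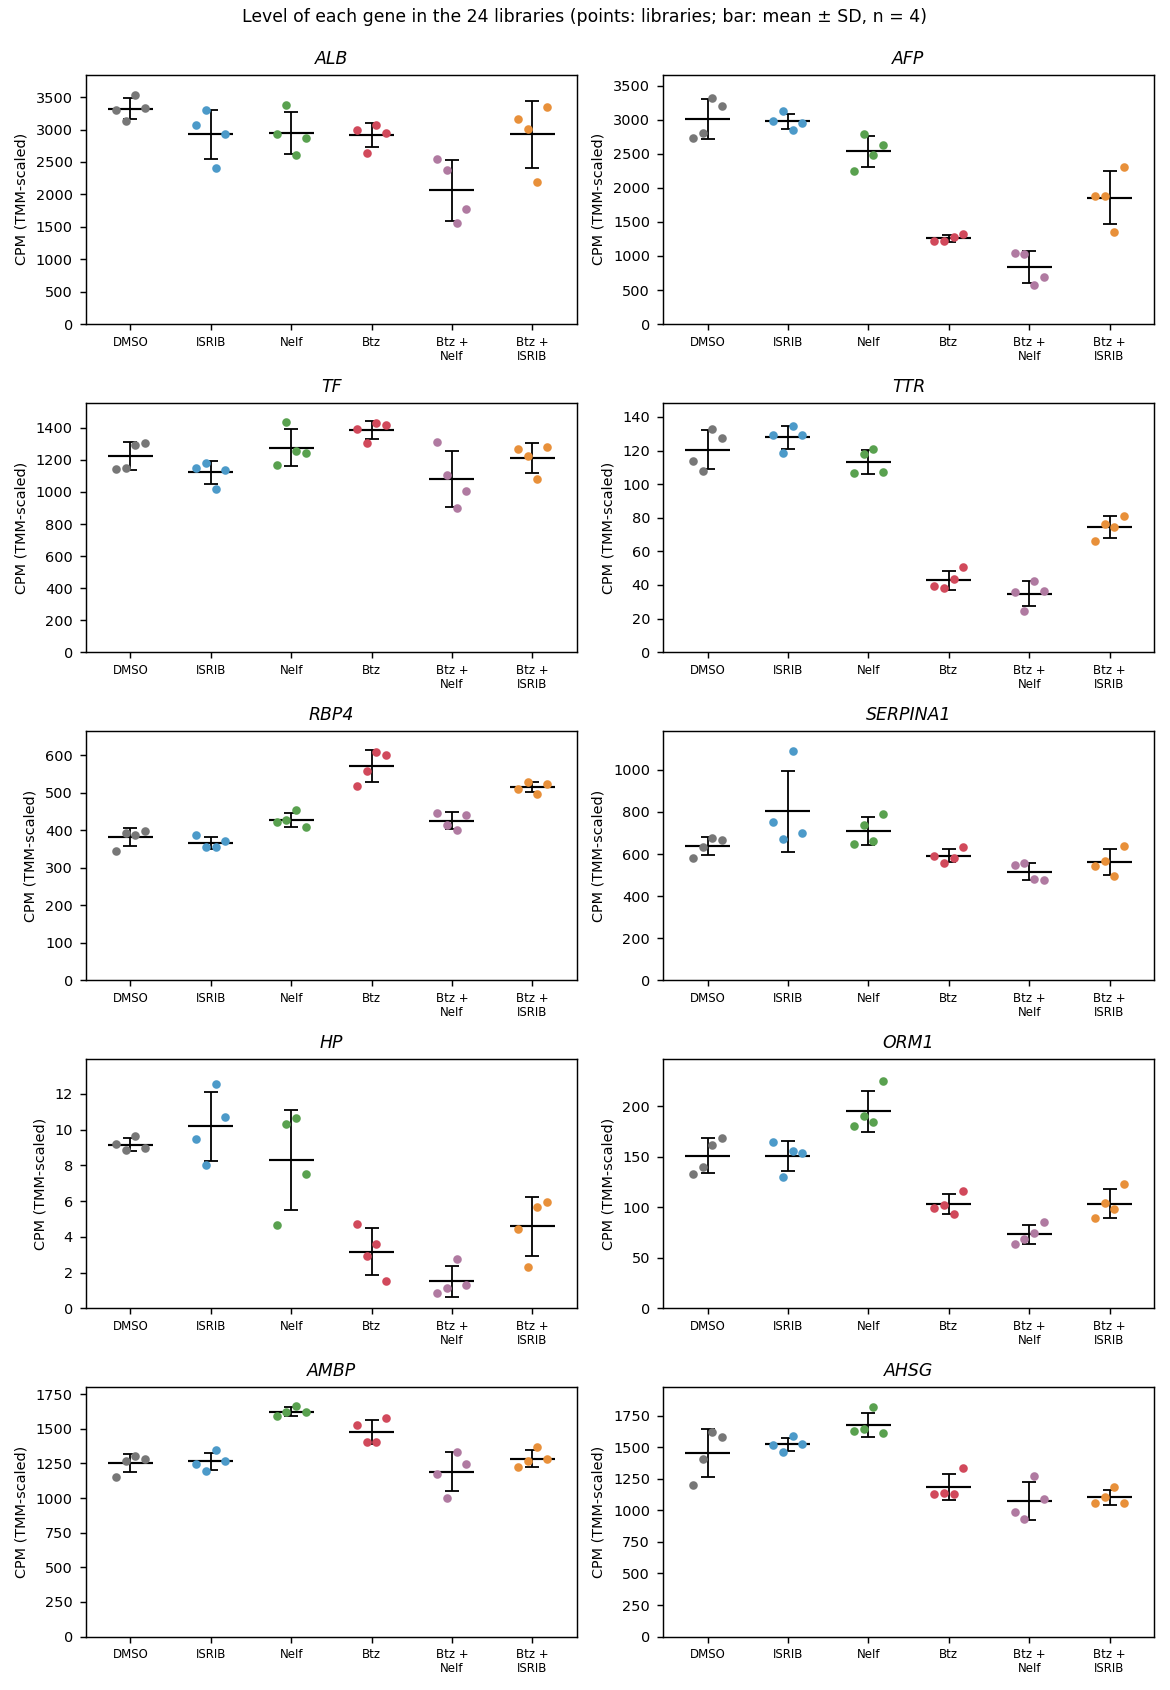
Levels of the 10 genes in CPM (TMM-scaled, linear axes from 0) in the 24 libraries, grouped by treatment, where points are libraries and bars the mean ± SD of 4. *AFP* and *TTR* were low in bortezomib and its nelfinavir co-treatment and in between in its ISRIB co-treatment, whereas *RBP4* was highest in bortezomib at a mean of 571 CPM.

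*ALB* and *AFP* belong to 1 gene family and lie side by side on chromosome 4 in the same orientation. On GRCh37, *ALB* (ENSG00000163631) spans chr4:74262831-74287199 and *AFP* (ENSG00000081051) spans chr4:74296855-74321891, both on the plus strand, with 9656 bases between the end of *ALB* and the start of *AFP*. The other genes are *TF* at chr3:133464884-133515485 and *AHSG* at chr3:186330849-186339107, *TTR* at chr18:29136972-29178796, *RBP4* at chr10:95351444-95361501, *SERPINA1* at chr14:94843084-94857030, *HP* at chr16:72088404-72094954, *ORM1* at chr9:117085378-117088759 and *AMBP* at chr9:116822407-116840608. *RBP4*, *SERPINA1* and *AMBP* lie on the minus strand and the others on the plus strand. All are protein-coding genes, and the counts come from the 3′ ends of their transcripts.

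The promoters of *ALB* and *AFP* are shown because these neighbours differed in their response to bortezomib. Promoter sequences from RefSeq (GRCh38.p14), with 250 bases before the start site, matched 8 of the 10 genes with 12 start sites. *TTR* and *HP* had no match, so their promoters were not searched. The 2 sequences that follow end at the base before the start site, read 5′ to 3′ on the plus strand, and carry in capitals the letters GTTAAT, which are 1 arm of the palindromic site bound by the hepatocyte factor HNF1.
*ALB* promoter, chr4:73404037-73404286: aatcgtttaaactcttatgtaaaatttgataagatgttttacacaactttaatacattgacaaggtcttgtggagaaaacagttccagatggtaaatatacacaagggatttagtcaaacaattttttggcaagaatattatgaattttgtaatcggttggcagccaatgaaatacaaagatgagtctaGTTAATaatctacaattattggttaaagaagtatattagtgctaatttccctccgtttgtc
*AFP* promoter, chr4:73435971-73436220: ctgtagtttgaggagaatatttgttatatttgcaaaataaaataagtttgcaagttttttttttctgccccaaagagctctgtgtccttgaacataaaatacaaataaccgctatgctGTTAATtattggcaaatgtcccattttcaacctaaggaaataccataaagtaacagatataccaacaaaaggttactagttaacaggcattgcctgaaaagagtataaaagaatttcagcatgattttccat

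The letters GTTAAT, searched on both strands of the 250 bases before each start site, began at position −61 from the start site in *ALB* and at −132 in *AFP*. Of the 12 start sites of the 8 matched genes, 3 had them, the other being *SERPINA1*, against 6.23% of 35116 promoters. *RBP4*, *SERPINA1* and *TF* each have several of these start sites. The C/EBP letters TTGCNNAA were in 5 of the 12 and 9.05% of all, among them *ALB* and *AFP*. The FOXA letters TGTTTNC were in 4 of the 12 and 15.46% of all, in *ALB* and not in the searched bases of *AFP*. The HNF4 letters CAAAGTC were in 1 of the 12 (*AHSG*) and 2.91% of all, and the C/EBP-ATF composite TGATGNAA in 1 of the 12 (*RBP4*) and 3.14% of all. No match overlapped another in the searched bases. These matches describe the letters and say nothing of binding in these cells.

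Bortezomib was compared with DMSO to see what proteasome inhibition did to these transcripts. *TTR*, *AFP*, *HP*, *ORM1* and *AHSG* fell, *RBP4* and *AMBP* rose, and *ALB*, *TF* and *SERPINA1* did not pass the test. A gene is called here at an adjusted p below 0.05, and 53.4% of the 12685 genes tested were called in this comparison, 27.6% higher and 25.8% lower, so that 7 called genes of 10 is not far above the share over all genes. The libraries of the groups did not overlap for 8 of the 10 genes, against 50.0% of all genes. The median log2 fold change of the 10 genes was −0.24, against 0.0017 over all genes.

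*AFP* stood at 2728, 2807, 3319 and 3201 CPM in DMSO and at 1217, 1219, 1276 and 1326 CPM in bortezomib. Every bortezomib library was below the lowest DMSO library, and the spread in bortezomib was narrow (1259 ± 52, SD, n = 4). The log2 fold change was −1.26 ± 0.14 (SE, edgeR quasi-likelihood test, adjusted p = 1.739e-09), which leaves 41.8% of the DMSO level. *ALB*, its neighbour, stood at 3294, 3126, 3533 and 3340.2 CPM in DMSO and at 2997, 2638, 3069.9 and 2951 CPM in bortezomib. The libraries did not overlap here either, but the log2 fold change of −0.19 ± 0.12 did not pass (SE, edgeR adjusted p = 0.202), with a 95% interval of −0.45 to 0.07. *ALB* was called lower with library totals alone (−0.69, adjusted p = 1.156e-05), with no filter (−0.26, adjusted p = 0.0123) and in a fit of the compared groups only (−0.22, adjusted p = 0.00566). The counts of *AFP* and *ALB* within a library give a ratio that no scaling changes. It was 0.906 ± 0.058 in DMSO and 0.433 ± 0.027 in bortezomib (SD, n = 4 each), with a lowest DMSO value of 0.828 and a highest bortezomib value of 0.462.

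*TTR* and *RBP4*, whose proteins circulate together, moved in opposite directions. *TTR* was at 114, 108, 133 and 127 CPM in DMSO and at 39.1, 38.0, 43.3 and 50.8 CPM in bortezomib, from 183 to 235 counts per library. It fell by 1.49 ± 0.12 on the log2 scale (SE, edgeR adjusted p = 1.021e-12), to 35.5% of the DMSO level. *RBP4* was at 346, 393, 388 and 398 CPM in DMSO and at 518, 557, 609 and 601 CPM in bortezomib. All 4 bortezomib libraries were above all DMSO libraries, and *RBP4* rose by 0.58 ± 0.07 (SE, edgeR adjusted p = 3.026e-08), or 1.5-fold. The ratio of *TTR* to *RBP4* counts was 0.317 ± 0.030 in DMSO and 0.0748 ± 0.0071 in bortezomib (SD, n = 4 each). The rise of *RBP4* was one against the other genes, since with library totals alone its log2 fold change was 0.09 (edgeR, adjusted p = 0.319). As CPM of the plain total, *RBP4* was at 460.1 ± 22 in DMSO and 488 ± 30.03 in bortezomib (SD, n = 4 each).

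**Figure D2:**
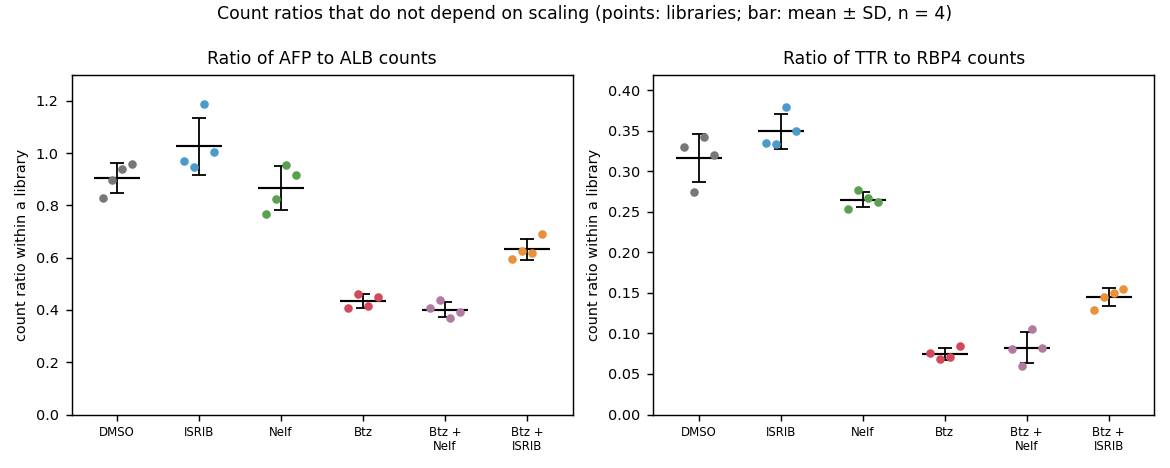
Ratios of counts within a library, *AFP* to *ALB* (left) and *TTR* to *RBP4* (right), on linear axes from 0 for the 6 treatments, with points for libraries and bars for the mean ± SD of 4. Both ratios were below every DMSO library in all 12 libraries with bortezomib, and within these the 4 with ISRIB lay highest, at 0.595 to 0.691 for *AFP* to *ALB*.

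*HP* and *ORM1* were lower as well. *HP* had 68 to 79 counts per library in DMSO and 7 to 22 in bortezomib, at 9.18, 8.85, 9.66 and 8.95 CPM against 4.71, 2.91, 3.59 and 1.51 CPM. It fell by 1.52 ± 0.32 (SE, edgeR adjusted p = 0.000135), and its 95% interval of −2.19 to −0.85 was the widest of the 10 genes. *ORM1* was at 133, 140.2, 162 and 169 CPM in DMSO and at 99, 102, 93.6 and 116 CPM in bortezomib, with no overlap. It fell by 0.55 ± 0.11 (SE, edgeR adjusted p = 6.139e-05).

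*HP* and *ORM1* each have a near copy. Over the last 500 bases of their transcripts, *HP* and *HPR* share 95.6% of 501 aligned bases, and *ORM1* and *ORM2* share 93.9% of 495, so that reads could be assigned to either copy. *HPR* had 0 to 4 counts per library without bortezomib and 0 in all 12 libraries with it. *ORM1* took 52.4 to 64.5% of the counts of the *ORM1* and *ORM2* pair in the 24 libraries. With the pair summed, the log2 fold change was −0.62 ± 0.10 (SE, edgeR adjusted p = 3.684e-06). In the GENCODE gene models used here, exons of *TF* overlap those of *SRPRB* on the same strand. In addition, 192 bases of *TF* match, at 100%, another annotated gene that has no row of counts here. These models are newer than the Ensembl models on which the reads were counted. The counts of *TF* are uncertain as far as the counted models share these features, which was not tested.

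*AMBP* stood at 1154, 1268, 1304 and 1284 CPM in DMSO and at 1525, 1407, 1403 and 1576 CPM in bortezomib, with no overlap. It rose by 0.24 ± 0.08 (SE, edgeR adjusted p = 0.00987). The call was lost without DMSO replicate 2 (0.19, adjusted p = 0.0699) and without bortezomib replicate 1, 2 or 4 (0.15 to 0.20, adjusted p = 0.0611 to 0.155) and with no filter (0.16, adjusted p = 0.162), and with library totals alone the value was −0.26 (adjusted p = 0.00641). *TF* was similar, at 1146, 1148, 1293 and 1303 CPM in DMSO and 1391, 1308, 1429 and 1420.3 CPM in bortezomib. Its log2 fold change was 0.18 ± 0.09, which did not pass (SE, edgeR adjusted p = 0.0931), but was called higher in a fit of the compared groups only (0.15, adjusted p = 0.046) and lower with library totals alone (−0.32, adjusted p = 0.0036). *AHSG* was at 1205, 1409, 1622 and 1581 CPM in DMSO and at 1127, 1136, 1133 and 1341 CPM in bortezomib. The groups overlapped, as bortezomib replicate 4 was above the lowest DMSO library, and *AHSG* fell by 0.30 ± 0.09 (SE, edgeR adjusted p = 0.0069). *SERPINA1* was at 582 to 677 CPM in DMSO and 559 to 634 CPM in bortezomib, with a log2 fold change of −0.11 ± 0.11 (SE, edgeR adjusted p = 0.398) and a 95% interval of −0.34 to 0.11.

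The scaling mattered most in this comparison. With library totals alone, 9 of the 10 genes were called lower and 0 higher, against 5 and 2 with TMM factors, and *RBP4* alone was not called. *TTR*, *AFP*, *HP*, *ORM1* and *AHSG* were called lower under every alternative run.

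**Figure D3:**
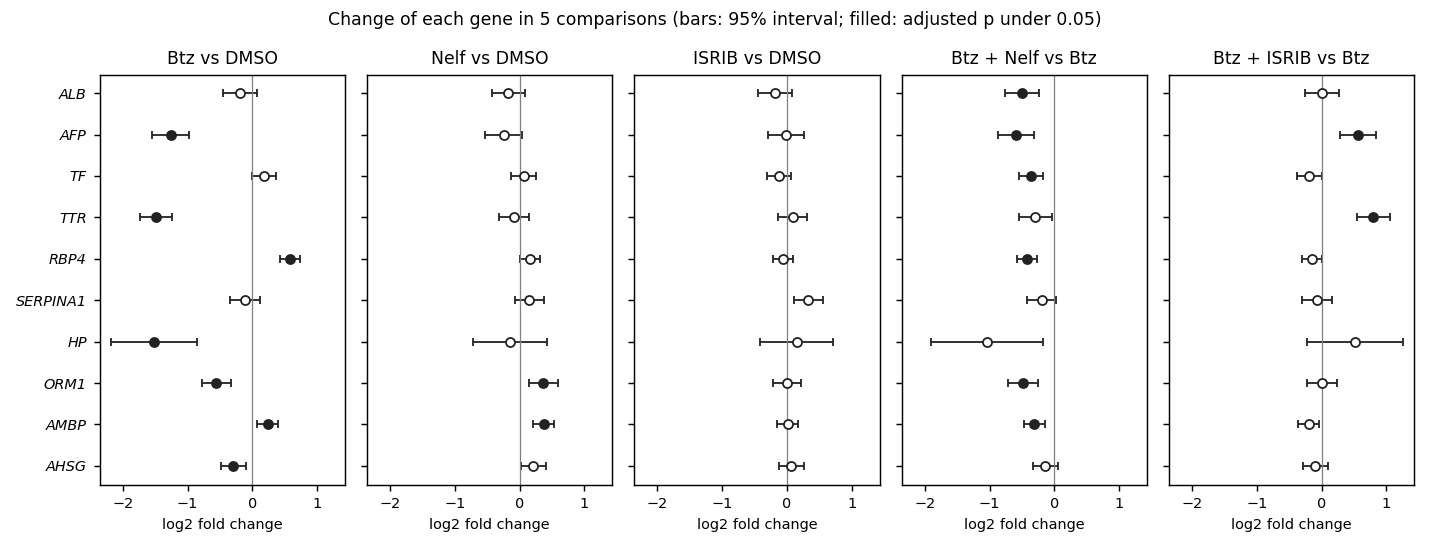
Log2 fold change of each gene in 5 comparisons, with 95% intervals computed from the edgeR test as bars and filled symbols for an adjusted p under 0.05, where the vertical line marks no change. The intervals of *HP* are the widest, and filled symbols lie on both sides of the line for bortezomib but only on the right for nelfinavir and for ISRIB added to bortezomib and only on the left for nelfinavir added to bortezomib. With library totals alone the bortezomib values of *AMBP* and *TF* lie on the left, at −0.26 and −0.32.

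Other plasma protein genes gave a setting for these 10. Of 31 tested genes of a list of 39 further hepatocyte plasma proteins, 20 fell with bortezomib and 0 rose, with a median log2 fold change of −0.85 (also with *AFM* at its bound). With library totals alone 26 fell and 0 rose. *AFM*, which encodes afamin, another albumin family protein that binds vitamin E, had 17 counts over the 4 DMSO libraries and 0 in the bortezomib libraries, and no fold is given. *KNG1*, the kininogen from which bradykinin is cut, fell by 2.86 ± 0.73 from 52 counts to 4 over 4 libraries each (SE, edgeR adjusted p = 0.00121). *HPR*, *SERPING1* and *LBP*, with 5, 2 and 3 counts in DMSO, also had 0 counts in bortezomib and were not tested, and neither were *GC*, *HRG* and *SAA1*, which were at 0 in at least 1 treatment and at 13 counts or fewer in every one. *SERPINA7*, the thyroxine-binding globulin, shares the ligand of transthyretin and fell by 2.85 ± 0.17 (SE, edgeR adjusted p = 1.235e-15).

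Of 23 transcription factors of hepatocytes, 15 fell and 4 rose with bortezomib, and 17 fell and 3 rose with library totals alone. *ONECUT1*, a factor of liver development, fell by 3.13 ± 0.52 (SE, edgeR adjusted p = 4.763e-06). *CEBPB*, a C/EBP factor of the acute-phase response, rose by 2.45 ± 0.19, and *ZBTB20*, a repressor of *AFP* in the liver after birth, rose by 1.09 ± 0.23 (SE, edgeR adjusted p = 6.877e-13 and 0.00014). Their part in the levels of the 10 genes was not tested. Of 6 tested genes for receptors of these proteins, 4 fell and 1 rose. *CD163*, *LRP2* and *STRA6* were at 0 in at least 1 treatment and were not tested. *ASGR1*, a subunit of the asialoglycoprotein receptor that clears glycoproteins, fell by 0.96 ± 0.15 and *TFR2*, which senses iron-loaded transferrin, fell by 0.88 ± 0.25 (SE, edgeR adjusted p = 1.152e-06 and 0.00392). *TFRC*, the receptor that takes up iron-loaded transferrin, rose by 0.49 ± 0.09 (SE, edgeR adjusted p = 9.514e-06), whereas with library totals alone 0 of the 6 receptor genes rose and 5 fell.

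Nelfinavir was compared with the same DMSO libraries to ask what a drug that raises ATF4 signaling did without proteasome inhibition. *AMBP* and *ORM1* rose, and none of the 10 genes fell. The share of all tested genes called was 19.2%, with 10.4% higher and 8.84% lower, so that 2 of 10 is near the share over all genes. The libraries of the groups did not overlap for 3 of the 10, against 29.6% of all genes. The median log2 fold change of the 10 genes was 0.11.

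*AMBP* was at 1589, 1621, 1666 and 1618 CPM in nelfinavir, against 1154 to 1304 in DMSO, and the spread in nelfinavir was the smallest of any gene and treatment (1623 ± 31.9, SD, n = 4, or 1.96% of the mean). It rose by 0.37 ± 0.08 (SE, edgeR adjusted p = 0.000513). *ORM1* was at 180.0, 190.5, 184 and 225 CPM in nelfinavir, all above the DMSO libraries, and rose by 0.37 ± 0.11 (SE, edgeR adjusted p = 0.0113). Without DMSO replicate 1, DMSO replicate 2 or nelfinavir replicate 4 its call was lost (0.29 to 0.32, adjusted p = 0.0602 to 0.073). With *ORM2* added the rise was 0.32 ± 0.10 (SE, edgeR adjusted p = 0.0179).

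The remaining genes moved less. *RBP4* stood at 421, 426, 453 and 409 CPM in nelfinavir, above every DMSO library, but its log2 fold change of 0.16 ± 0.07 did not pass (SE, edgeR adjusted p = 0.118). *AHSG* had a log2 fold change of 0.21 ± 0.09 (SE, edgeR adjusted p = 0.116) and nelfinavir libraries at 1634, 1648, 1822 and 1616 CPM. *AFP*, at 2253, 2787, 2487 and 2632 CPM, had a log2 fold change of −0.25 ± 0.13 (SE, edgeR adjusted p = 0.223), and *ALB*, at 2934, 3382, 2606 and 2877 CPM, one of −0.17 ± 0.12 (SE, edgeR adjusted p = 0.387). *AFP* was called lower with no filter (adjusted p = 0.0386) and in a fit of the compared groups only (adjusted p = 0.0188). The ratio of *AFP* to *ALB* was 0.865 ± 0.085, which overlaps DMSO, and that of *TTR* to *RBP4* was 0.265 ± 0.0097 (SD, n = 4 each). *TF*, *TTR*, *SERPINA1* and *HP* had log2 fold changes between −0.15 and 0.15, and in *HP* nelfinavir replicate 1 stood at 4.66 CPM beside 10.3, 10.6 and 7.53 CPM.

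Of the 31 other plasma protein genes, 9 rose and 3 fell with nelfinavir. *KNG1* rose by 1.82 ± 0.43 and *SERPINC1*, which encodes antithrombin, by 1.27 ± 0.12 (SE, edgeR adjusted p = 0.00206 and 4.000e-10). *SERPINA7* fell by 0.70 ± 0.15 and *SAA4*, a constitutive serum amyloid A, by 0.70 ± 0.09 (SE, edgeR adjusted p = 0.000493 and 2.788e-07). Of the 23 transcription factors, 6 rose and 2 fell. *CEBPB* rose by 2.52 ± 0.19 and *CEBPG*, a C/EBP factor that pairs with others, by 1.25 ± 0.20 (SE, edgeR adjusted p = 1.303e-12 and 1.592e-05), while *FOXA1* fell by 1.05 ± 0.26 and *PROX1* by 0.58 ± 0.12 (SE, edgeR adjusted p = 0.00326 and 0.000355). *TFR2* rose by 0.64 ± 0.22 (SE, edgeR adjusted p = 0.0379), the only receptor gene called.

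ISRIB without bortezomib gave no call among these genes. By edgeR's test 0 of all 12685 genes were called (0%), 703 had an unadjusted p under 0.05, and DESeq2 called 3. Of the 10 genes, 1 had an unadjusted p under 0.05, and for 0 of them the libraries did not overlap, against 8.01% of all genes. The gene with an unadjusted p under 0.05 was *SERPINA1*, at 752, 672, 1088 and 699 CPM in ISRIB against 582, 632, 677 and 666 CPM in DMSO, with a log2 fold change of 0.33 ± 0.11 (SE, edgeR adjusted p = 0.652). ISRIB replicate 3 stood apart from the others, and without it the log2 fold change was 0.15. *ALB* was at 3069.9, 3303, 2408 and 2937 CPM, with its lowest library the same replicate 3, and its log2 fold change was −0.18 ± 0.12 (SE, edgeR adjusted p = 1). The other 8 genes had log2 fold changes between −0.12 and 0.15, and the 95% interval of *AMBP* ran from −0.15 to 0.18. The ratios were 1.03 ± 0.11 for *AFP* to *ALB* and 0.349 ± 0.021 for *TTR* to *RBP4* (SD, n = 4 each). None of the other plasma protein, transcription factor or receptor genes was called.

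Nelfinavir added to bortezomib was compared with bortezomib alone to ask how the co-treatment altered the bortezomib response. *ALB*, *AFP*, *TF*, *RBP4*, *ORM1* and *AMBP* fell, and none of the 10 rose. Over all tested genes, 28.9% were called, 15.6% higher and 13.4% lower, beside 6 of 10 called lower here. The median log2 fold change of the 10 genes was −0.39, against −0.02 over all genes, and all 10 values were below 0. For 6 of the 10 the libraries did not overlap, against 21.5% of all genes. Of the 6 tested epithelial and hepatoma markers 4 fell as well and 0 rose, with *GPC3* at −1.03, *APOB* at −0.59, *EPCAM* at −0.54 and *APOA1* at −0.28, and *ACTA2* fell by 0.56 on the log2 scale (edgeR adjusted p = 0.000176, 5.955e-05, 0.00011, 0.00415 and 0.00146). The mitochondrial share was below that of every bortezomib library in all 4 co-treated libraries. The part of these in the results on nelfinavir added to bortezomib was not tested.

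The 4 co-treated libraries fell into pairs. The chi-square per degree of freedom between their counts was 4.13 for replicates 1 and 2 and 7.71 for 3 and 4, but 14.1 to 21.8 across these pairs. The mitochondrial share was 28.5 and 29.6% in replicates 1 and 2 and 24.9 and 25.6% in 3 and 4. The labels name nothing that separates the pairs. The calls differed with the pair used. With replicates 1 and 2 alone, *ALB* (−0.23), *AFP* (−0.27) and *TF* (−0.19) were no longer called (edgeR adjusted p = 0.184, 0.112 and 0.178), whereas *TTR* (−0.48), *HP* (−1.66) and *AHSG* (−0.29) were (edgeR adjusted p = 0.0166, 0.0317 and 0.0361). With replicates 3 and 4 alone, *ALB* (−0.75) and *AFP* (−0.94) were called with larger values (edgeR adjusted p = 2.378e-05 and 9.126e-07), and *ORM1* (−0.31) and *AMBP* (−0.14) were not (edgeR adjusted p = 0.0712 and 0.216). *RBP4* was called lower with either pair, at −0.40 and −0.39 (edgeR adjusted p = 0.00126 and 0.0011). These fits were chosen after the data were seen.

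*ALB*, which had not passed with bortezomib alone, stood at 2551, 2369, 1562 and 1777 CPM in the co-treatment against 2997, 2638, 3069.9 and 2951 CPM in bortezomib. All co-treated libraries were below the lowest bortezomib library, but they spread widely (2065 ± 471, SD, n = 4). *ALB* fell by 0.50 ± 0.12 (SE, edgeR adjusted p = 0.00275). The high libraries were replicates 1 and 2 and the low ones 3 and 4. *AFP* stood at 1038, 1034, 574 and 698 CPM in the same libraries, low where *ALB* was low, and fell by 0.59 ± 0.14 (SE, edgeR adjusted p = 0.00115). The ratio of *AFP* to *ALB* was 0.401 ± 0.029 (SD, n = 4) and overlapped bortezomib alone.

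*RBP4*, which bortezomib had raised, was at 447, 414, 401 and 441 CPM in the co-treatment, below all 4 bortezomib libraries. It fell by 0.43 ± 0.07 (SE, edgeR adjusted p = 3.329e-05), the smallest p of the 10 genes in this comparison. *TF* was at 1312, 1104, 898 and 1007 CPM, with replicate 1 inside the range of bortezomib, and fell by 0.36 ± 0.09 (SE, edgeR adjusted p = 0.00317). *AMBP*, at 1174, 1002, 1334 and 1248 CPM, fell by 0.31 ± 0.08 (SE, edgeR adjusted p = 0.0026), and without replicate 2 of the co-treatment its log2 fold change was −0.19 (adjusted p = 0.0775). *ORM1*, at 64.0, 69.0, 74.5 and 85.8 CPM, fell by 0.49 ± 0.11 (SE, edgeR adjusted p = 0.00131), and with *ORM2* added by 0.51 ± 0.10 (SE, edgeR adjusted p = 0.000271).

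*TTR*, already low in bortezomib, was at 35.9, 24.5, 42.4 and 36.4 CPM and had a log2 fold change of −0.29 ± 0.12 (SE, edgeR adjusted p = 0.0765). *HP* had 4 to 14 counts per library and a log2 fold change of −1.05 ± 0.41 (SE, edgeR adjusted p = 0.0537). Without replicate 3 of the co-treatment both passed, *TTR* at −0.37 (adjusted p = 0.0352) and *HP* at −1.48 (adjusted p = 0.018), and *HP* also without bortezomib replicate 4 (−1.23, adjusted p = 0.0263). With library totals alone both passed (adjusted p = 0.0478 for *TTR* and 0.0437 for *HP*), and *HP* passed with DESeq2 (adjusted p = 0.0347). *SERPINA1* had a log2 fold change of −0.20 ± 0.11 and *AHSG* of −0.14 ± 0.09 (SE, edgeR adjusted p = 0.18 and 0.253).

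Of the 31 other plasma protein genes, 13 fell and 1 rose, with a median of −0.32, or −0.34 over 30 genes without *AFM*, which has at most 3 counts in either group. *FGA*, the fibrinogen alpha chain, fell by 1.22 ± 0.14 and *LRG1*, an acute-phase glycoprotein, by 1.16 ± 0.18 (SE, edgeR adjusted p = 3.369e-08 and 7.086e-06). *KNG1* rose by 3.33 ± 0.72 from 4 counts to 45 over 4 libraries each (SE, edgeR adjusted p = 0.000659). Among the 23 transcription factors 5 rose and 5 fell. *FOXA2* rose by 1.29 ± 0.10 and *ONECUT2* by 0.49 ± 0.14 (SE, edgeR adjusted p = 1.877e-11 and 0.00928). *ZHX2*, another repressor of *AFP*, fell by 0.75 ± 0.22 and *HNF4A*, a central activator of hepatocyte genes, by 0.56 ± 0.12 (SE, edgeR adjusted p = 0.00859 and 0.000401). Of the receptor genes, *TFRC* fell by 0.69 ± 0.09 and *FCGRT*, the receptor that returns albumin to the circulation, by 0.42 ± 0.09 (SE, edgeR adjusted p = 2.292e-07 and 0.000716), and 3 of 6 fell in all.

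The interaction, which is the change on adding nelfinavir with bortezomib minus the change on adding it without, was below 0 for all 10 genes (with replicates 3 and 4 of the co-treatment alone *TTR* was at 0.02) and passed for *AMBP*, *RBP4*, *ORM1* and *TF*. Over all genes 19.7% were called, 9.74% above 0 and 10.0% below. *AMBP* and *ORM1* are the genes that nelfinavir raised alone and lowered on top of bortezomib, with interactions of −0.69 ± 0.11 and −0.85 ± 0.15 (SE, edgeR adjusted p = 2.048e-05 and 0.000116). The interaction of *RBP4* was −0.59 ± 0.10 (SE, edgeR adjusted p = 6.983e-05). That of *TF* was −0.42 ± 0.13 (SE, edgeR adjusted p = 0.0184), and it was lost without nelfinavir replicate 2, bortezomib replicate 3 or replicate 3 or 4 of the co-treatment (−0.31 to −0.37, adjusted p = 0.0523 to 0.0682), and without both of these (−0.25, adjusted p = 0.172). *AHSG* lay just outside at −0.35 ± 0.13 (SE, edgeR adjusted p = 0.0527), and it passed without DMSO replicate 3 or 4 or co-treatment replicate 3 (−0.39 to −0.41, adjusted p = 0.0185 to 0.0418). It also passed with library totals alone, TMM without mitochondrial genes and the default filter (adjusted p = 0.0493, 0.0489 and 0.0481). *ALB* and *AFP*, at −0.33 ± 0.18 and −0.35 ± 0.19, did not pass (SE, edgeR adjusted p = 0.2 and 0.21), so their response to nelfinavir was not shown to differ with bortezomib. With replicates 3 and 4 of the co-treatment alone both passed, at −0.58 and −0.69 (edgeR adjusted p = 0.00844 and 0.00205), and with replicates 1 and 2 alone they were at −0.06 and −0.02.

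**Figure D4:**
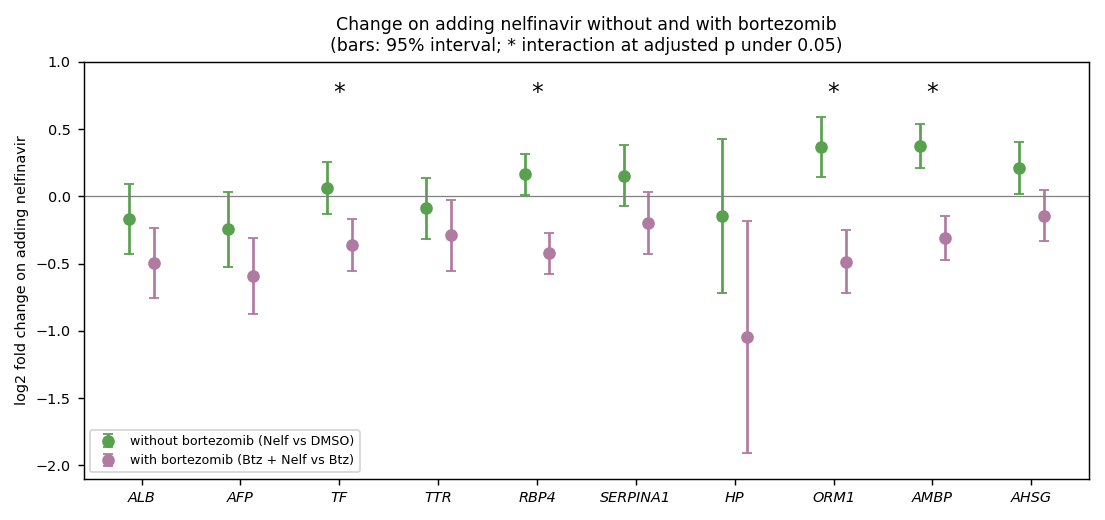
Log2 fold change on adding nelfinavir without bortezomib (green) and with it (purple) for each gene, with 95% intervals computed from the edgeR test, and asterisks where the interaction had an adjusted p under 0.05. The purple values lie below the green ones for all 10 genes, and asterisks stand over *TF*, *RBP4*, *ORM1* and *AMBP*.

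Of the 31 other plasma protein genes, 13 had a called interaction below 0 and 0 above. The largest were those of *SERPINC1* at −1.69 ± 0.18 and *FGA* at −1.55 ± 0.19 (SE, edgeR adjusted p = 8.874e-09 and 1.449e-07). Of the transcription factors 7 were called below 0 and 3 above. *CEBPB* was at −2.26 ± 0.25 and *HNF4A* at −1.14 ± 0.16 (SE, edgeR adjusted p = 3.205e-08 and 2.257e-06), and *FOXA1* was at 1.39 ± 0.42 (SE, edgeR adjusted p = 0.0169). Of 6 receptor genes 3 were called below 0, led by *TFRC* at −0.65 ± 0.12 and *FCGRT* at −0.42 ± 0.13 (SE, edgeR adjusted p = 0.00018 and 0.0176).

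ISRIB added to bortezomib was compared with the same bortezomib libraries. *TTR* and *AFP* rose and none of the 10 genes fell. Over all genes 12.2% were called, 6.91% higher and 5.34% lower. For 4 of the 10 genes the libraries did not overlap, against 12.5% of all genes, and the median of the 10 genes was −0.03 on the log2 scale. The 4 co-treated libraries were uneven here too. The chi-square per degree of freedom was 3.36 for replicates 1 and 2, 23.7 for 3 and 4, and 9.12 to 13.2 for the other pairs. The mitochondrial share was 32.6% in replicate 3 and 40.2% in replicate 4, and its part in these results was not tested.

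*TTR* was at 65.9, 76.4, 74.7 and 81.0 CPM in the co-treatment, against 39.1, 38.0, 43.3 and 50.8 CPM in bortezomib, with no overlap. It rose by 0.80 ± 0.12 (SE, edgeR adjusted p = 1.345e-05), or 1.74-fold, and remained below every DMSO library (108 to 133 CPM). *AFP* was at 1885, 1874, 1351 and 2313 CPM against 1217, 1219, 1276 and 1326 CPM, again with no overlap and with replicate 3 just above the bortezomib libraries. It rose by 0.56 ± 0.13 (SE, edgeR adjusted p = 0.00477), or 1.47-fold. *ALB* stood at 3168, 3004, 2188 and 3348 CPM, and its log2 fold change of 0.01 ± 0.12 had a 95% interval of −0.25 to 0.27. The ratio of *AFP* to *ALB* was 0.632 ± 0.041 and that of *TTR* to *RBP4* was 0.145 ± 0.011 (SD, n = 4 each). The lowest co-treated library had 0.595 and 0.129, above the highest bortezomib library at 0.462 and 0.0845. Replicate 3, which was low in *ALB* and in *AFP*, had a ratio inside the range of the other co-treated libraries.

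The other genes did not pass. *HP* had 11 to 27 counts per library and a log2 fold change of 0.52 ± 0.35 (SE, edgeR adjusted p = 0.368). *AMBP*, at 1225, 1268, 1367 and 1279 CPM, lay below every bortezomib library, with a log2 fold change of −0.20 ± 0.08 (SE, edgeR adjusted p = 0.085). It was called lower with library totals alone (−0.26, adjusted p = 0.0281) and with DESeq2 (−0.21, adjusted p = 0.0499). *TF* also lay below, at 1270.1, 1223, 1079 and 1280.4 CPM, with −0.19 ± 0.09 (SE, edgeR adjusted p = 0.173). *RBP4*, at 511, 528, 497 and 522 CPM, had −0.15 ± 0.07 (SE, edgeR adjusted p = 0.179), and *SERPINA1*, *ORM1* and *AHSG* were between −0.10 and 0.01.

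The interaction of ISRIB with bortezomib passed for *TTR* alone, at 0.71 ± 0.16 (SE, edgeR adjusted p = 0.00574), where 4.82% of all genes were called, 2.93% above 0 and 1.89% below. *AFP* was at 0.58 ± 0.19 (SE, edgeR adjusted p = 0.0727), and without replicate 3 of the co-treatment at 0.70 (adjusted p = 0.00868). It was also called with no filter (adjusted p = 0.000837) and in a fit of the compared groups only (adjusted p = 0.0159). *SERPINA1* was at −0.40 ± 0.15 (SE, edgeR adjusted p = 0.131).

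Of the 31 other plasma protein genes, 5 rose and 3 fell when ISRIB was added to bortezomib. *SHBG*, the sex hormone-binding globulin, rose by 1.22 ± 0.37 and *SAA4* by 1.03 ± 0.09 (SE, edgeR adjusted p = 0.026 and 8.640e-10), while *SERPINC1* fell by 0.60 ± 0.13 and *SERPINF2*, which encodes antiplasmin, by 0.49 ± 0.12 (SE, edgeR adjusted p = 0.00196 and 0.00502). Of the transcription factors 5 rose and 4 fell. *FOXA2* rose by 0.67 ± 0.11 (SE, edgeR adjusted p = 3.266e-05), and *NFIL3* fell by 1.10 ± 0.14 and *NR1H4*, the bile acid receptor, by 0.82 ± 0.16 (SE, edgeR adjusted p = 1.494e-06 and 0.000534). *LRP1*, a scavenger receptor of the liver, was the 1 receptor gene called and rose by 0.73 ± 0.16 (SE, edgeR adjusted p = 0.00239). The interaction was called above 0 for 2 and below 0 for 1 of the plasma protein genes, with *SAA4* at 0.97 ± 0.13, *APOH* at 0.74 ± 0.12 and *SERPINF2* at −0.66 ± 0.16 (SE, edgeR adjusted p = 4.005e-06, 0.000149 and 0.0138). It was called for 3 transcription factors in each direction, led by *FOXA2* at 0.71 ± 0.14 and *NFIL3* at −1.17 ± 0.20, and for *LRP1* at 0.93 ± 0.22 (SE, edgeR adjusted p = 0.00153, 0.000198 and 0.0104).

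Over the 6 treatments the genes fell into different orders. *AFP* descended from DMSO (3014 ± 290.3 CPM) and ISRIB (2977 ± 114) to nelfinavir (2539.8 ± 227), bortezomib with ISRIB (1856 ± 394), bortezomib (1259 ± 52) and bortezomib with nelfinavir (836 ± 236, SD, n = 4 each). Of the neighbours in this order, DMSO and ISRIB overlapped, as did nelfinavir and bortezomib with ISRIB, and the others did not. *TTR* had a like order, from 128 ± 6.77 CPM in ISRIB, 120.5 ± 11.7 in DMSO and 113 ± 7.3 in nelfinavir to 74.5 ± 6.31 in bortezomib with ISRIB, 42.8 ± 5.78 in bortezomib and 34.8 ± 7.48 with nelfinavir added (SD, n = 4 each). In *TTR* the 3 treatments without bortezomib overlapped with their neighbours, and so did the last 2. *ALB* was between 2914 and 3323 CPM in 5 treatments, all overlapping with the next, and 2065 CPM in bortezomib with nelfinavir alone. *RBP4* ran the other way, from 571 ± 42.4 CPM in bortezomib and 515 ± 13.8 in bortezomib with ISRIB to 381 ± 24 in DMSO and 366 ± 15.3 in ISRIB (SD, n = 4 each).

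Profiles were compared as the root mean square difference of the 6 treatment means of log2 CPM, each gene centred on its own mean. *AFP* and *TTR* were each other's nearest of the 10 genes, at 0.13. Among 7882 other genes with at least 10 CPM on average, those nearest to *AFP* were *KIAA1161*, *UNK* and *SERPIND1*, at 0.06, 0.07 and 0.07, against a median distance of 0.76. Those nearest to *ALB* were *ZNF480*, *TMEM38B* and *IL13RA1*, at 0.04, 0.06 and 0.07, against a median of 0.39. The points are 6 treatment means and share libraries, and the distances are a description.

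Replicates spread unevenly. The lowest *ALB* library was replicate 3 in 4 of 6 treatments, those with ISRIB or nelfinavir, alone or added to bortezomib. In *AMBP* and *AHSG*, replicate 3 held the highest library in 5 of 6 treatments each. Deviations from the treatment means over the 12685 tested genes correlated at 0.12 to 0.22 in all 6 pairs of these 4 libraries, a description over genes that are not independent. The labels give no batch, and whether these libraries were handled together was not tested.

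**Figure D5:**
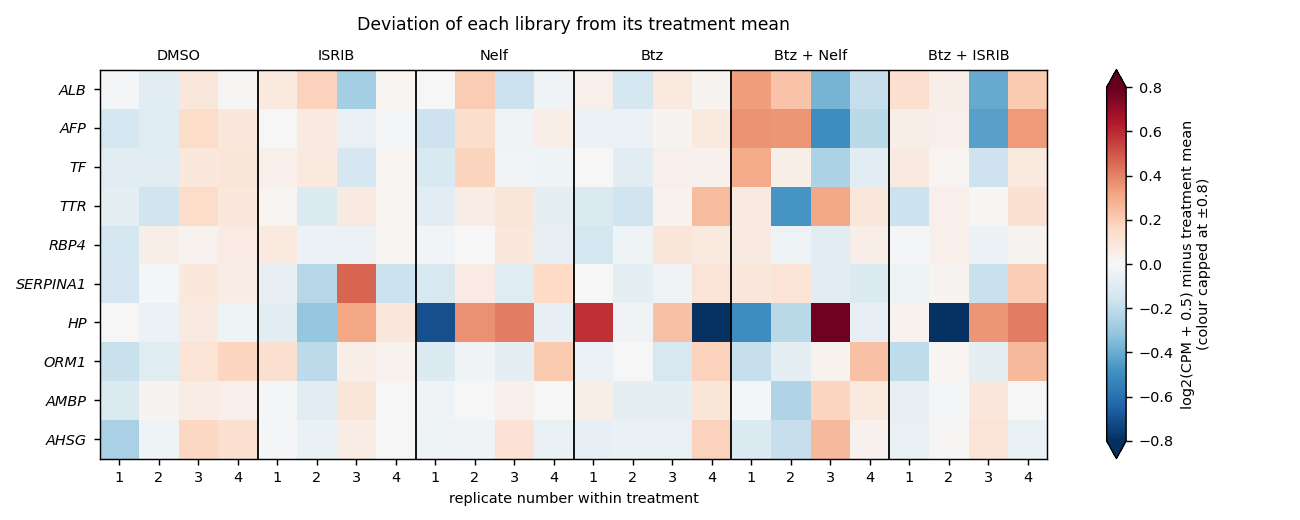
Deviation of each library from its treatment mean, in log2(CPM + 0.5), for the 10 genes (rows) and 24 libraries (columns, by treatment and replicate number), with red above and blue below the mean and the colour capped at 0.8 either way. *ALB* is blue in replicate 3 of ISRIB, nelfinavir and both co-treatments, and *HP*, with the fewest counts, has the deepest colours.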

How the data were processed

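Count data of 24 RNA-Seq libraries (QuantSeq 3′ FWD, single-end reads of 80 bp) from 6 treatments of HepG2 cells with 4 replicates each were used. The authors trimmed reads with cutadapt 2.8, aligned them to hg19 (GRCh37) with STAR, and deposited unnormalized read counts per gene for 18915 genes. The sources used here do not give the counting program, its strand setting or any molecular identifiers, so the count totals set the precision only as far as reads are independent. Trimming, alignment and read assignment are fixed in the deposited counts and could shift genes with near copies.

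Total counts ran from 5154533 to 6943164 per library. The main test was the quasi-likelihood test of edgeR 4.0.16, run in R 4.3.3 beside DESeq2 1.42.0 and limma 3.58.1, and Python 3.11.15 and BLAST 2.17.0 served the sequences. The filter kept genes by filterByExpr with a minimum of 5 counts and 25 in total, and TMM factors scaled the libraries. All 24 libraries entered 1 model, with Benjamini-Hochberg adjustment over 12685 genes and a threshold of 0.05. The 7 comparisons share libraries. The same DMSO group enters the comparisons of each single drug with DMSO and both interactions. The same bortezomib group enters the comparison with DMSO, both co-treatment comparisons and both interactions. In the co-treatment comparisons its sign is opposite to that in the comparison with DMSO, so these changes are not independent. P-values set a difference between treatments against the spread between these libraries. That spread is estimated over all treatments and moderated over genes, so it is not that of the compared groups alone. SEs given with edgeR are the absolute log2 fold change over the square root of the F statistic. The 95% intervals use these SEs and a t quantile on the residual degrees of freedom. The test itself uses moderated degrees of freedom, so an interval can include no change where the unadjusted p is under 0.05. Replicates of every treatment differed by more than sampling noise, the closest pair with a chi-square of 2.17 per degree of freedom. Scripts were tested on simulated data.

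The 10 genes, the lists (39 other plasma proteins, 23 transcription factors, 10 receptors, markers), the motifs and the tests were chosen with earlier results of these data known. All 10 genes are named. From each list and comparison, the 2 genes called higher and the 2 called lower with the largest absolute log2 fold change and non-overlapping libraries are named, together with genes at 0 in a treatment, except 1 transcription factor that is not reported here. Alternatives were RLE factors, library totals alone, TMM without mitochondrial genes, no filter, the default filter, a replicate block, DESeq2, the compared groups only, and each library left out. After the data were seen, *ORM1* and *ORM2* were summed, 4 libraries numbered 3 were removed, and so in turn were pairs of libraries of bortezomib with nelfinavir. Gene positions, exon overlaps and near copies are from a GENCODE release lifted to GRCh37, and promoters from RefSeq on GRCh38.p14. This GENCODE release is newer than the Ensembl annotation with which the reads were counted, so spans can differ from the counted models.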

Additional observations from a re-analysis of the deposited data

Results flagged for a closer look

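*AHSG* had a library far from the others of its treatment in 2 cases. Nelfinavir replicate 3 stood at 1822 CPM, beside 1616 to 1648 CPM in the other 3 libraries, and bortezomib replicate 4 at 1340.5 CPM, beside 1127 to 1136 CPM. Of the 60 sets of 4 libraries examined (10 genes in 6 treatments), 2 were singled out in this way by Dixon's ratio of the gap to the range, at 0.845 and 0.956, where chance alone singles out about 1 in 20. Without bortezomib replicate 4 the log2 fold change of *AHSG* between bortezomib and DMSO was the lowest of its leave-one-out values, −0.42, and without other libraries it was up to −0.24, called lower in each case.

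The response to nelfinavir differed between cells with and without bortezomib for 4 genes, by the interaction in edgeR. It was −0.42 for *TF*, −0.59 for *RBP4*, −0.85 for *ORM1* and −0.69 for *AMBP* on the log2 scale. The call for *TF* was lost in some fits with 1 library left out (edgeR adjusted p up to 0.0682). By the same kind of test the response to ISRIB differed for *TTR*, in the other direction, by 0.71.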

How the results depend on the processing

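Counts of called genes and signs of small values moved with these choices, given on the log2 scale where they are changes. With library totals alone, 0 of the 10 genes were called higher and 9 lower between bortezomib and DMSO, with *TF* at −0.3165 and *AMBP* at −0.259. The same choice called 1 gene lower when ISRIB was added to bortezomib and turned the signs of *AMBP* for ISRIB (−0.007), of *ALB* (−0.0621) and *ORM1* (−0.0558) for ISRIB added to bortezomib, and of *ORM1* in its interaction (−0.0346), all near 0. RLE factors turned *ORM1* for ISRIB (0.0109) and in the interaction (−0.0093) and *ALB* for ISRIB added to bortezomib (−0.0033). TMM without mitochondrial genes gave 0.008, −0.0085 and −0.0029 for these, and −0.0005 for *ORM1* with ISRIB added to bortezomib. With no filter, 1 gene was called higher with bortezomib and *ALB* lower, *AFP* lower with nelfinavir and 2 higher in the ISRIB interaction, and 39 of all genes were called for ISRIB. The default filter gave 0.0022 for *ORM1* with ISRIB, and like library totals and TMM without mitochondrial genes it called *AHSG* in the nelfinavir interaction. DESeq2 called 3 of all genes for ISRIB and 1 of the 10 genes lower with ISRIB added to bortezomib (*AMBP*) and *HP* lower with nelfinavir added, with 0.0109 and −0.0093 for *ORM1* and −0.0032 for *ALB*. With the compared groups only, calls among all genes were 3873 for nelfinavir, 80 for ISRIB, 2246 for nelfinavir and 867 for ISRIB added to bortezomib, *ALB* was called lower and *TF* higher with bortezomib, 1 of the 10 genes lower with nelfinavir and 2 higher in the ISRIB interaction, and *ORM1* for ISRIB was 0.0011. The cause of these differences was not tested.

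The labels tie the replicate numbers to no culture or day. Deviations from treatment means correlated above 0.1 in 10 of the 60 equally numbered pairs (−0.085 to 0.215) and in 7 of 180 others. The equally numbered pairs above 0.1 include all 6 pairs among the 4 libraries numbered 3. In ISRIB the replicate numbers do not follow the S numbers of the labels, whereas in the other treatments both ascend together. Equal numbers may therefore not match for ISRIB, which bears on these pairs, on the replicate block and on the libraries numbered 3. Since the labels state no shared source, the libraries were not treated as paired, and whether some share a source was not tested. The replicate block gave −0.0108 for *ALB* with ISRIB added to bortezomib and 0.0072 and −0.0004 for *ORM1* with ISRIB and in its interaction. It called 8 genes lower on adding nelfinavir to bortezomib instead of 6, with *TTR* and *HP* added, and 5 instead of 4 in the nelfinavir interaction, with *AHSG* added, and changed no other call among the 10 genes.

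Leaving out 1 library at a time, the number of the 10 genes called higher ran from 1 to 2 for bortezomib, nelfinavir and the ISRIB interaction. The number called lower ran from 5 to 8 for nelfinavir added to bortezomib and from 3 to 5 for the nelfinavir interaction. Signs turned within these ranges, for nelfinavir in *TF* (0 to 0.1033) and *HP* (−0.2889 to 0.0534), for ISRIB in *AFP* (−0.0626 to 0.0323), *AMBP* (−0.0243 to 0.0398), *AHSG* (−0.0112 to 0.1263) and *ORM1* (−0.0569 to 0.0658), for ISRIB added to bortezomib in *ALB* (−0.067 to 0.1191) and *ORM1* (−0.0858 to 0.0729), and in the ISRIB interaction in *ORM1* (−0.0846 to 0.074). Removing the 4 libraries numbered 3 was chosen after their *ALB* was seen, so its values are a description. It gave 0.0021 for *AFP* and −0.0187 for *AMBP* with ISRIB, 1 gene called lower with ISRIB added to bortezomib, 9 lower with nelfinavir added and 2 higher in the interaction. With replicates 1 and 2 of bortezomib with nelfinavir removed, *AHSG* turned to 0.0491 and *TTR* in the interaction to 0.0221. Depth limits *HP* most, at 4 to 89 counts per library.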
